A study of Bassia scoparia with 27 samples.

Results

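Glucose-6-phosphate/phosphate translocator 2 of kochia (Bassia scoparia) is transcript Bs.00g002550.m01, 1 of the 45517 transcripts in the normalized count table and 1 of the 29165 that passed the filter on low values. It was chosen by its normalized counts, which were known to be far lower at 10 h after fluroxypyr than before, so its changes with time are given below as a description, without a test. RNA-seq of young leaf and meristem tissue was made from 3 lines. Flur-R (B3 in the sample labels) is a population bred from survivors of fluroxypyr, an herbicide that mimics auxin. 9425 is an inbred line that resists dicamba and is susceptible to fluroxypyr, and J01-S is a susceptible field population. Untreated tissue was taken after a water spray, a day before the herbicide, and the same plants were sampled again at 3 and 10 h after treatment (HAT). Libraries of a line with the same number in their labels were taken as the same plant. The untreated, 3 HAT and 10 HAT groups hold 3, 3 and 4 libraries for Flur-R, 3, 3 and 4 for 9425, and 2, 2 and 3 for J01-S. No unsprayed tissue was taken at 3 or 10 h, so herbicide treatment and hour of sampling cannot be told apart in any change from untreated.

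Glucose-6-phosphate/phosphate translocators sit in the inner envelope of plastids and bring glucose-6-phosphate in from the cytosol in exchange for inorganic phosphate. Inside the plastid the imported sugar phosphate can feed starch synthesis or the oxidative pentose phosphate pathway. Mature leaf chloroplasts make their own sugar phosphates and usually carry little of this transporter. In Arabidopsis thaliana, the second gene of this family, GPT2, is known for rising with sugar supply and when leaves move to stronger light.

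The gene model of translocator 2 lies on chromosome 8 of the kochia genome assembly version 2, from 2695550 to 2697894 on the minus strand. It has 5 exons, a coding length of 1188 bases and 1 isoform, and the models annotate no UTR. Because it has a single isoform, its level is not divided among isoforms of the same locus.

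Across libraries, the sum of normalized counts ranged from 59.4 to 76.9 M untreated, from 60.0 to 75.6 M at 3 HAT and from 50.9 to 61.3 M at 10 HAT. The line of each susceptible 10 HAT library was checked on 943 transcripts that separate 9425 from J01-S in the earlier libraries. Those libraries came from plants 1 to 4 of 9425 but only from plants 1 and 4 of J01-S. J01-S replicates 2 and 3 thus had no part in the choice, and their percentages cannot be read on the same scale. Replicates 1, 2 and 4 labelled 9425 had 98.4, 99.2 and 98.8% of the 943 transcripts on the 9425 side. The library labelled 9425 10 HAT replicate 3 had 38.6%. The library labelled J01-S 10 HAT replicate 3 had 98.6% on the 9425 side, replicate 2 had 27.5% and replicate 4 had 1.06%. Libraries were used as labelled. Group means, mean folds and the r of the closest transcripts are also given without both of these 10 HAT libraries labelled replicate 3. Most other 10 HAT values are given only with them. The last section covers the calls of translocator 2 and the list counts without them. J01-S 10 HAT replicate 2 was kept wherever both libraries labelled replicate 3 were left out.

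Translocator 2 was abundant in untreated tissue of every line and was nearly gone at 10 HAT. In bulk tissue, fewer cells of a type that carries the transcript and less transcript per cell cannot be told apart. In Flur-R its normalized counts were 2635, 3858 and 5183 in untreated plants 2, 3 and 4. At 3 HAT the same Flur-R plants had 6374, 7498 and 3828. At 10 HAT, Flur-R plants 1 to 4 had 14, 418, 25 and 21. The untreated and 3 HAT ranges of Flur-R overlapped, and both lay above every 10 HAT library. Plant 2 stood far from the other 3 plants of its group at 10 HAT.

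In 9425, translocator 2 had 13699, 7006 and 9337 normalized counts in untreated plants 1, 2 and 3. At 3 HAT, 9425 plants 2, 3 and 4 had 2270, 3792 and 940. At 10 HAT, 9425 plants 1 to 4 had 34, 57, 51 and 24. The 3 times did not overlap in 9425, and the level stepped down at each. In J01-S, untreated plants 1 and 4 had 4645 and 9151, and the same plants had 4267 and 1063 at 3 HAT. J01-S plants 2, 3 and 4 had 36, 49 and 83 at 10 HAT. Over the 3 lines, the highest 10 HAT library, at 418, was below the lowest of the untreated and 3 HAT libraries, at 940.

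**Figure D1:**
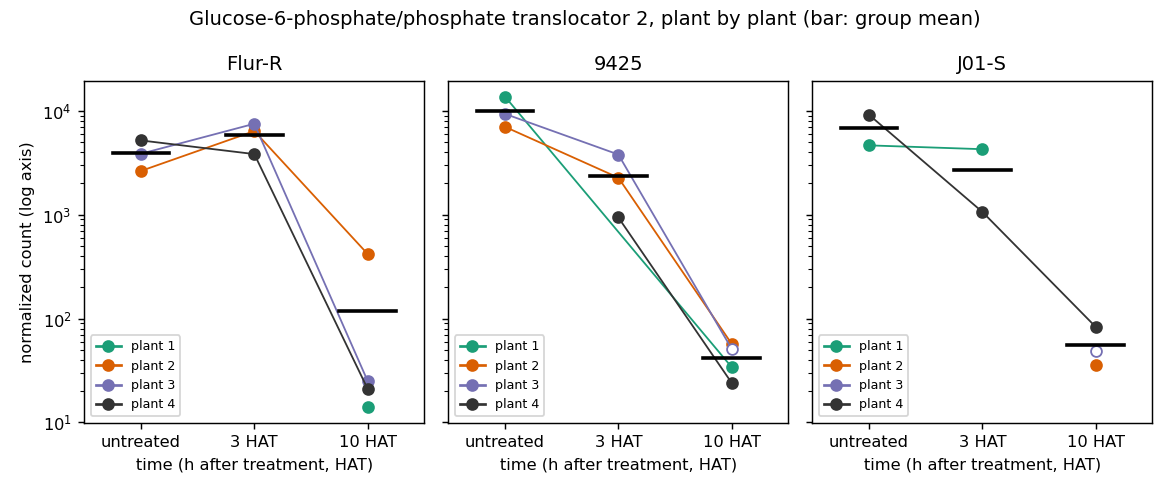
Normalized count of translocator 2 on a log axis, by time (h after treatment), in Flur-R, 9425 and J01-S. Each point is 1 library, lines join libraries of 1 plant, black bars are group means, and open points are the libraries labelled 9425 and J01-S 10 HAT replicate 3. Every 10 HAT library lies below every earlier library, and Flur-R plant 2 at 418 is the highest of the 10 HAT libraries.

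Ordered by mean level, untreated 9425 was highest at 10014 ± 3397 normalized counts (SD, n = 3), followed by untreated J01-S at 6898 ± 3186 (n = 2). Flur-R followed at 3 HAT with 5900 ± 1880 (n = 3) and untreated with 3892 ± 1274 (n = 3). J01-S at 3 HAT had 2665 ± 2266 (n = 2) and 9425 at 3 HAT had 2334 ± 1427 (n = 3). Each of these 6 groups overlapped its neighbour in this order. The 10 HAT groups came last, with 119.5 ± 199 in Flur-R (n = 4), 56 ± 24.3 in J01-S (n = 3) and 41.5 ± 15.2 in 9425 (n = 4), and they overlapped one another as well. The only gap in the order was the one between 3 HAT of 9425 and 10 HAT of Flur-R. Without plant 2, the Flur-R mean at 10 HAT was 20 ± 5.57 (n = 3), which would place it below both susceptible lines. Without the 2 libraries in doubt, the 10 HAT means were 38.3 ± 16.9 in 9425 (n = 3) and 59.5 ± 33.2 in J01-S (n = 2). That J01-S mean still holds replicate 2, which had 27.5% of the line-separating transcripts on the 9425 side.

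From untreated to 10 HAT, the mean level of translocator 2 was 32.6-fold lower in Flur-R, 241-fold lower in 9425 and 123-fold lower in J01-S. Without Flur-R plant 2 the Flur-R figure was 195-fold, and without the libraries in doubt those of 9425 and J01-S were 261-fold and 116-fold. On the log2(normalized count + 1) scale, Flur-R changed by -6.43 (SE 0.797), 9425 by -7.90 (SE 0.797) and J01-S by -6.92 (SE 0.952). Ranked from the most negative change among 29165 transcripts, translocator 2 was number 12 in Flur-R, number 3 in 9425 and number 9 in J01-S. The median change over all transcripts tested lay between 0.03 and 0.05 in these comparisons.

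At 3 HAT, the group means of translocator 2 moved in different directions, and the test of that difference is given below. Its mean was 1.52-fold higher than untreated in Flur-R, 4.29-fold lower in 9425 and 2.59-fold lower in J01-S. The log2 changes were 0.60 (SE 0.852) in Flur-R, -2.26 (SE 0.852) in 9425 and -1.61 (SE 1.04) in J01-S. As a fold, the larger part of the fall in every line lay between 3 and 10 HAT, over which the mean was 49.4-fold lower in Flur-R, 56.2-fold lower in 9425 and 47.6-fold lower in J01-S. The Flur-R figure became 295-fold without plant 2. Counted in normalized counts instead, 77% of the loss in 9425 and 61.9% of that in J01-S came before 3 HAT.

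Plant by plant, the late fall was seen wherever a plant was sampled at both times. Of the 7 plants with an untreated and a 10 HAT library, 7 were lower at 10 HAT, and of the 7 with a 3 HAT and a 10 HAT library, 7 were lower as well. Flur-R plants 2, 3 and 4 were 15.2-fold, 299.9-fold and 182-fold lower at 10 than at 3 HAT. Plant 2 had 6.56% of its 3 HAT value left, whereas plants 3 and 4 had 0.333 and 0.549% left. In 9425, plants 2, 3 and 4 were 39.8-fold, 74.4-fold and 39.2-fold lower, where plant 3 includes a library in doubt. J01-S plant 4 was 12.8-fold lower, from a 3 HAT value that was already 8.61-fold below its untreated value. It is the only J01-S plant that gives this step.

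Over the earlier step, from untreated to 3 HAT, 5 of 7 plants were lower and 2 were higher. The 2 that were higher were Flur-R plant 2, by 2.42-fold, and Flur-R plant 3, by 1.94-fold. Flur-R plant 4 was 1.35-fold lower, so the plants of this line did not share a direction. In 9425, plant 2 was 3.09-fold and plant 3 was 2.46-fold lower. J01-S plant 1 was 1.09-fold lower and plant 4 was 8.61-fold lower. The J01-S mean at 3 HAT therefore joins a plant near its untreated level with a plant far below its own.

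The level of translocator 2 was compared between lines at each time with limma on log2(normalized count + 1), in 1 fit over the 9 groups. The study's tables list it among the most lowered transcripts at 10 HAT in 9425 and J01-S, but not in Flur-R. Line comparisons that use untreated or 10 HAT values, and the 3 HAT responses below, are therefore not independent of what it was known by. None of the 9 comparisons passed an adjusted p under 0.05 with a log2 difference over 0.5 in size, and 0 had an unadjusted p under 0.05. Over all transcripts, 0.00 to 4.43% were called in these comparisons. For Flur-R against 9425, Flur-R against J01-S and 9425 against J01-S, the shares were 3.28, 2.04 and 2.45% untreated. They were 3.10, 3.06 and 3.23% at 3 HAT and 4.43, 2.23 and 0.00% at 10 HAT. The 0.00% comes from 9425 against J01-S, a comparison that holds both libraries in doubt. It does not show that these lines lacked differences, and the share without those libraries is not given here. Before treatment, Flur-R was lower than 9425 by a log2 difference of -1.36 (95% interval -3.14 to 0.41, limma, Benjamini-Hochberg adjusted p = 0.455). Against untreated J01-S the difference of Flur-R was -0.80 (interval -2.78 to 1.18, limma adjusted p = 0.839).

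At 3 HAT the order was turned, with Flur-R above 9425 by 1.50 (interval -0.27 to 3.27, limma adjusted p = 0.392) and above J01-S by 1.41 (interval -0.57 to 3.40, limma adjusted p = 0.429). At 10 HAT, Flur-R differed by 0.11 from 9425 (interval -1.42 to 1.65, limma adjusted p = 0.957) and by -0.30 from J01-S (interval -1.96 to 1.35, limma adjusted p = 0.895). Without Flur-R plant 2 the first of these became -0.98. Between the susceptible lines the difference of 9425 from J01-S was 0.56 untreated, -0.09 at 3 HAT and -0.42 at 10 HAT, with adjusted p of 0.831, 0.974 and 0.942 in limma. Each interval holds 0 and also holds differences of over 2-fold in at least 1 direction, so a missed threshold does not show that the lines are alike.

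After these values were seen, the 3 HAT response itself was compared between lines. The change of Flur-R exceeded that of 9425 by a log2 of 2.86 (SE 1.20, 95% interval 0.35 to 5.37), with an unadjusted p of 0.0273 and an adjusted p of 1 in limma. It exceeded that of J01-S by 2.21 (SE 1.35, interval -0.59 to 5.02, limma adjusted p = 1). With the plant as a random block, the difference from 9425 was 2.64 (limma adjusted p = 0.697). The 3 HAT response of 9425 differed from that of J01-S by -0.65 (SE 1.35, limma adjusted p = 1). No difference in the course at 3 HAT was thus called, where 0.0309% of all transcripts were called between Flur-R and 9425 and 0.00% in the other comparisons of responses.

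In its mean change at 3 HAT in Flur-R, the translocator lay above the other steeply falling transcripts. Of all transcripts tested, 17 had a log2 change of -5 or below at 10 HAT in each line, a limit that was set after the values were seen. At 3 HAT in Flur-R the other transcripts among the 17 lay between -5.55 and -1.35, with a median of -2.65, whereas translocator 2 was at 0.60 (SE 0.852). Its Flur-R plants did not share a direction, since plant 4 was lower at 3 HAT than untreated. In 9425 it was number 8 from the top among the 17, and the others ranged from -4.54 to -0.54. In J01-S it was number 2 from the top, and the others ranged from -5.94 to 0.29. These values describe the means and were not tested.

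Likeness to translocator 2 was measured as Pearson's r on log2(normalized count + 1) over the 27 libraries, which share their 9 groups, among 20611 transcripts with a mean of at least 50. The median r was -0.02, 97 transcripts reached 0.9 and 8 lay at -0.9 or below. The 12 closest had r from 0.934 to 0.949, and the next transcript had 0.930, so the edge of this list is not sharp. Their lowest r within any line ranged from 0.882 to 0.936. Without the 2 libraries in doubt the r of the 12 ranged from 0.927 to 0.950.

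The closest of all was Bs.00g010430.m01 (r = 0.949), which carries no description in the study's tables, as do 8 of the 12. It had 3591, 3714 and 3300 normalized counts in untreated Flur-R, 2743, 2203 and 2761 at 3 HAT and 640, 915, 599 and 674 at 10 HAT. It changed much less than translocator 2, with log2 changes of -2.34, -2.48 and -1.95 for Flur-R, 9425 and J01-S at 10 HAT. At 3 HAT its changes were -0.47, -0.41 and -0.34, where those of translocator 2 were 0.60, -2.26 and -1.61.

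Among the 12, the transcripts with a description were both isoforms of a chlorophyll a-b binding protein (Bs.00g240870), which holds antenna pigments, a thiamine thiazole synthase (Bs.00g060850.m01), an enzyme of vitamin B1 synthesis, and a tetratricopeptide-like helical domain protein (Bs.00g253530.m01). The chlorophyll a-b binding isoform Bs.00g240870.m01 (r = 0.940) had log2 changes of -6.80, -7.11 and -6.50 for Flur-R, 9425 and J01-S at 10 HAT, and its separate level is uncertain because isoforms share reads. Thiamine thiazole synthase (r = 0.939) had -5.98, -6.54 and -6.01 in these lines. Bs.00g253530.m01 (r = 0.937) had -6.95, -6.31 and -6.03, and at 10 HAT its Flur-R plants 1 to 4 had 28, 32, 35 and 27 normalized counts, where plant 3 was the highest. In the other 11 of the 12 closest transcripts, plant 2 was the highest of the 4 Flur-R plants at 10 HAT, as it was in translocator 2. That library entered the r by which the 12 were chosen, so this count is not independent of the choice.

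The 12 closest transcripts differed widely in how far they fell. At 10 HAT their log2 changes ranged from -6.95 to -1.44 in Flur-R, with a median of -3.51, from -7.11 to -1.74 in 9425 and from -6.51 to -1.59 in J01-S. In 9425 and J01-S translocator 2 itself fell further than any of the 12, by -7.90 and -6.92. At 3 HAT in Flur-R the 12 ranged from -2.14 to -0.11, below the 0.60 of translocator 2, whereas in 9425 they ranged from -2.29 to -0.40 and in J01-S from -2.67 to -0.34, with translocator 2 inside both ranges.

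**Figure D2:**
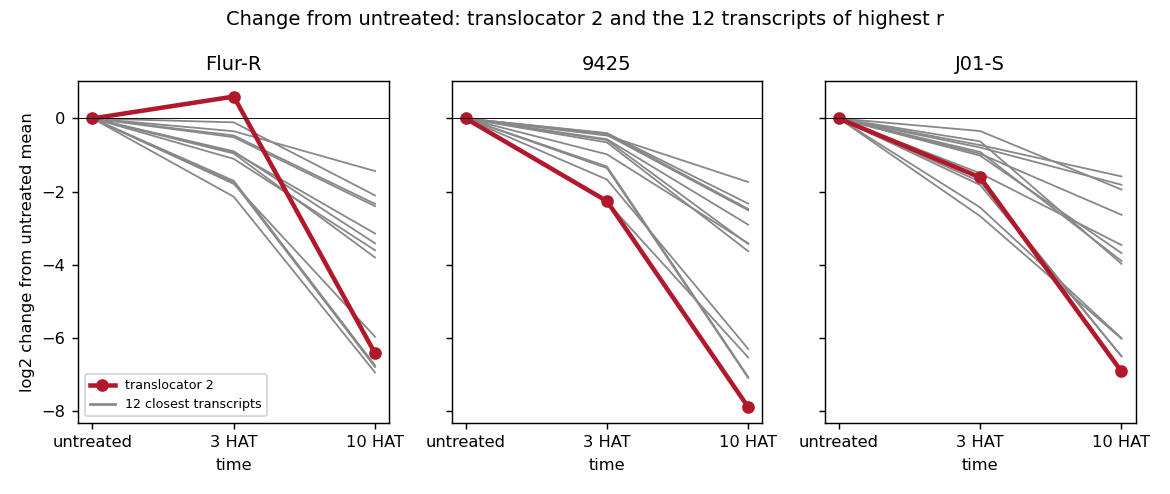
Log2 change from the untreated mean (vertical axis) at untreated, 3 HAT and 10 HAT in each line, for translocator 2 (thick line with points) and the 12 transcripts of highest r (thin lines). All 13 fall by 10 HAT, and at 3 HAT in Flur-R translocator 2 lies at 0.60, above the 12 others at -2.14 to -0.11.

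Closeness was also ranked among the 188 other transcripts that carry a description in the study's tables and passed the filter on low values. The next closest after those named was a photosystem I reaction center subunit IV A (Bs.00g115330.m01, r = 0.922). Then came a glyceraldehyde-3-phosphate dehydrogenase-like transcript (Bs.00g055200.m01, r = 0.922) and an acyl-CoA N-acyltransferase (Bs.00g058520.m01, r = 0.921). A fructose-1,6-bisphosphatase-related transcript (Bs.00g383860.m01, r = 0.920), magnesium chelatase subunit H (Bs.00g192330.m01, r = 0.908), which works in chlorophyll synthesis, and a PLC-like phosphodiesterase (Bs.00g480400.m01, r = 0.907) completed the 10.

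The transcript most opposite to translocator 2 was a NAC domain-containing protein 10-related transcript (Bs.00g364070.m01), of a family of plant transcription factors, with r = -0.939, the lowest of the 20611. In Flur-R it had 1107, 399 and 663 normalized counts untreated, 805, 539 and 1127 at 3 HAT and 5375, 4738, 8535 and 11271 at 10 HAT. Its rise, like the fall of translocator 2 in Flur-R, came after 3 HAT, and its lowest 10 HAT value in this line was that of plant 2, where translocator 2 was highest. That library entered the r by which this transcript was named, so its low value there is not independent of the choice. The other described transcripts of most negative r were a CYP71D10-like cytochrome P450 (Bs.00g057300.m01, r = -0.856), an aquaporin, a water channel (Bs.00g239120.m01, r = -0.856), and cold regulated protein 27 (Bs.00g168520.m01, r = -0.837).

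Starch and carbon metabolism is the setting in which the translocator works, and the list drawn from the study's tables holds 4 transcripts. At 10 HAT, 4 of 4 were lower than untreated in every line, where 10.4, 12.4 and 8.78% of all transcripts were called lower for Flur-R, 9425 and J01-S. At 3 HAT, 3 of 4 were lower in every line, against 4.00, 3.33 and 3.28% of all transcripts. With the plant as a block the 3 HAT counts were 3 (fixed) or 4 (random) for Flur-R, 2 or 4 for 9425 and 3 either way for J01-S. The list was taken from tables that the study made on these samples, so its direction is not independent evidence. The median log2 change of the list at 10 HAT was -4.35, -4.87 and -5.06 for the 3 lines in that order.

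Granule-bound starch synthase 1 (Bs.00g412900.m01), which makes amylose, had 5812, 11120 and 24999 normalized counts in untreated Flur-R plants 2, 3 and 4 and 1146, 1871 and 3730 at 3 HAT. Its log2 change at 3 HAT in Flur-R was -2.55 (SE 0.471, limma adjusted p = 0.00125), and 3 of 3 plants were lower, where translocator 2 was higher in 2 of 3. Over the 27 libraries its r with translocator 2 was 0.826. Phosphoenolpyruvate carboxylase kinase 1-related transcript Bs.00g104620.m01, a kinase of carbon metabolism, fell early in Flur-R, with log2 changes of -5.55 at 3 HAT and -6.12 at 10 HAT, and its r was 0.634. The glyceraldehyde-3-phosphate dehydrogenase-like transcript Bs.00g055200.m01 had a log2 change of -1.35 at 3 HAT in Flur-R (limma adjusted p = 0.175), and it was the list member not called at 3 HAT in any line.

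The light harvesting and photosystem list fell with the translocator at 10 HAT, with 6 of 6 transcripts, of 5 genes, lower in every line, against 10.4, 12.4 and 8.78% of all transcripts for Flur-R, 9425 and J01-S. At 3 HAT, 6 of 6 were lower in Flur-R, 3 of 6 in 9425 and 3 of 6 in J01-S, against 4.00, 3.33 and 3.28%. This list and those that follow also come from the study's tables on these samples, so their directions are not independent evidence, and whether these counts differ between lines was not tested. The 3 HAT counts rested on single libraries, since 3 were called in Flur-R without its 3 HAT replicate 2 or 3, and 5 in both 9425 and J01-S without the library labelled 9425 10 HAT replicate 3. In J01-S the count was 1 without untreated replicate 4 or 3 HAT replicate 4, 0 without 3 HAT replicate 1, and 6 with the plant as a block. Proton gradient regulation 5 (Bs.00g236450.m01), which takes part in cyclic electron flow, had log2 changes of -4.54, -5.15 and -5.10 at 10 HAT for Flur-R, 9425 and J01-S and an r of 0.904.

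The evening and cold regulated list moved the other way. Early flowering 4 (Bs.00g430360.m01), a component of the evening complex of the Arabidopsis clock, and both isoforms of cold regulated protein 27 were higher at both times in every line, 3 of 3 each time, where 4.77, 3.95 and 4.24% of all transcripts were called higher at 3 HAT for Flur-R, 9425 and J01-S, and 7.64, 11.3 and 6.96% at 10 HAT. Early flowering 4 rose by a log2 of 5.46, 5.61 and 5.76 at 10 HAT for Flur-R, 9425 and J01-S. In Flur-R at 3 HAT, early flowering 4 had already risen by 3.94 and the isoforms of cold regulated protein 27 by 4.33 and 4.21. Translocator 2 was then at 0.60 in Flur-R, and at -2.26 in 9425 and -1.61 in J01-S. The part of these clock-related transcripts in the fall of translocator 2 was not tested. The auxin response list, with GH3.2, an auxin-conjugating enzyme (Bs.00g477580.m01), had 4 of 4 higher at both times in every line. GH3.2 had an r of -0.706 with translocator 2. That list is not complete. It leaves out an auxin-inducible transcript that the study's tables give as lowered at 3 HAT in Flur-R and 9425. Also left out is an auxin-responsive protein transcript given as raised at 3 HAT in 9425.

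**Figure D3:**
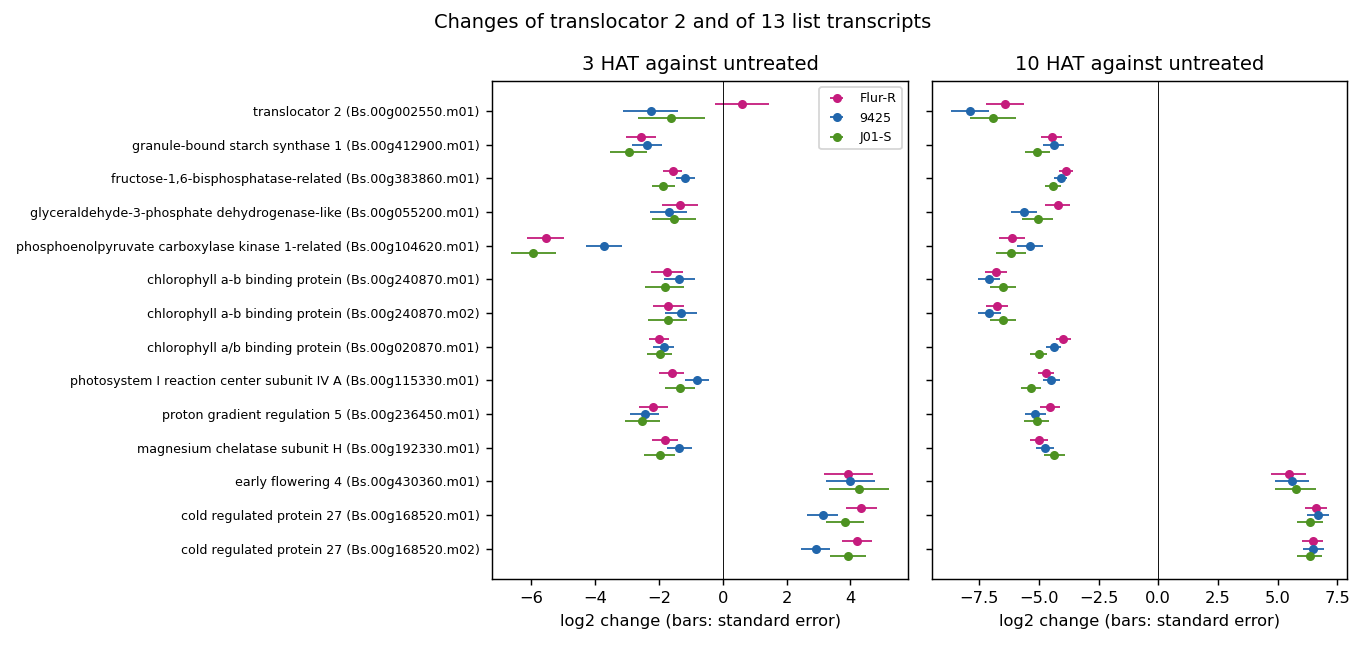
Log2 change from untreated (horizontal axis, bars show the standard error) at 3 HAT (left) and 10 HAT (right) for translocator 2 and for the 13 transcripts of the starch and carbon metabolism, light harvesting and photosystem, and evening and cold regulated lists, coloured by line. At 10 HAT translocator 2 lies with the 10 falling transcripts, and at 3 HAT in Flur-R it is the only one of these with a value above 0.

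To describe which transcripts followed translocator 2 from plant to plant within groups, r was also taken over the 27 deviations from the group means. The 12 closest transcripts had deviations r of 0.171 to 0.493, so their likeness lay mostly in the group means. Of the transcripts with a mean of at least 50, the highest was a glyoxalase/dioxygenase domain transcript (Bs.00g512260.m01), at 0.689. It had 24, 942, 14 and 7 normalized counts in Flur-R plants 1 to 4 at 10 HAT, so plant 2 was high in this transcript too. Without that library its deviations r was 0.341. Bs.00g388220.m01, which carries no description in the study's tables, had a deviations r of 0.681, and 0.718 without that library. Its Flur-R plants 1 to 4 had 261, 424, 250 and 304 normalized counts at 10 HAT. Plant 2 was the highest Flur-R plant at 10 HAT in all 5 transcripts named for their deviations, a measure that this library entered.

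The neighbouring gene on the chromosome followed translocator 2 between plants more closely over all 27 libraries. Bs.00g002540.m01, which carries no description in the study's tables, lies at 2688885 to 2694165 on the plus strand of chromosome 8, with 1384 bases between its end and that of translocator 2. Its mean of 41.4 is below the limit of 50 used above. Over all 29164 other transcripts tested, its deviations r with translocator 2 was the highest, at 0.777, and without Flur-R 10 HAT plant 2 it was 0.538, number 171. Its r over the 27 values was 0.826.

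In untreated Flur-R plants 2, 3 and 4, Bs.00g002540.m01 had 3, 4 and 4 normalized counts, and at 3 HAT it had 215, 129 and 93. At 10 HAT it was at 0, 28, 0 and 0 in plants 1 to 4, so its only value above 0 was in plant 2, where translocator 2 stood at 418. In 9425 it had 75, 129 and 112 untreated, 15, 67 and 4 at 3 HAT and 0, 1, 0 and 3 at 10 HAT. In J01-S it had 22 and 58 untreated, 136 and 7 at 3 HAT and 7, 3 and 2 at 10 HAT. As for translocator 2, Flur-R was high at 3 HAT, 9425 stepped down with time, and J01-S plant 4 was far below plant 1 at 3 HAT. Unlike translocator 2, it was near 0 in untreated Flur-R.

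The neighbour rose in Flur-R at 3 HAT by a log2 of 4.90 (SE 1.16, limma adjusted p = 0.00919) in 3 of 3 plants and fell in 9425 at 10 HAT by a log2 change of -5.95 (SE 1.09, limma adjusted p = 0.00033). Before treatment it was lower in Flur-R than in 9425, by -4.48 (SE 1.16, limma adjusted p = 0.0359), a call that each of the 6 libraries decided, since leaving out any of them gave adjusted p from 0.0672 to 0.152. Its 3 HAT response in Flur-R exceeded that in 9425 by 7.46 (SE 1.64, limma adjusted p = 0.166), and by 7.52 with the plant as a random block (limma adjusted p = 0.0367). Without Flur-R 10 HAT plant 2 the adjusted p was 0.038. These comparisons of the neighbour were chosen after its values were seen.

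The gene on the other side, Bs.00g002560.m01, lies 7579 bases away and had an r of -0.806 with translocator 2, with log2 changes at 10 HAT of 0.46, 0.44 and 0.40 for Flur-R, 9425 and J01-S. Their limma adjusted p were 0.0155, 0.0166 and 0.0861, and none was called because each was below the size limit of 0.5. Of the other gene models among the 3 on each side, Bs.00g002520.m01 had an r of 0.051, both isoforms of Bs.00g002580 had an r between -0.012 and 0.009, and Bs.00g002530.m01 and Bs.00g002570.m01 did not pass the filter on low values. On this stretch, likeness to translocator 2 was seen in Bs.00g002540.m01 and not in the other tested models. An r of its size, 0.826, was not rare in the data. Granule-bound starch synthase 1, also at 0.826, was number 493 of the 20611 transcripts ranked.

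**Figure D4:**
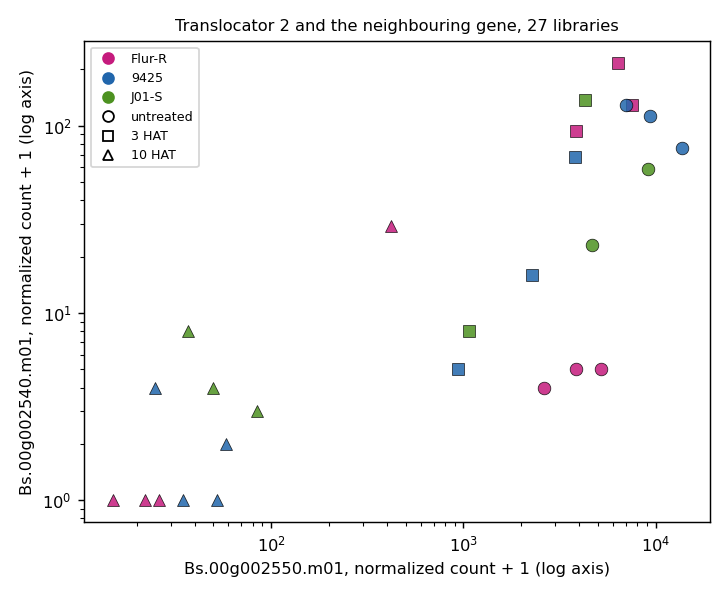
Normalized count plus 1 of Bs.00g002540.m01 (vertical, log axis) against that of translocator 2 (horizontal, log axis) in 27 libraries, coloured by line and with a symbol for each time. The 3 untreated Flur-R libraries lie low at 3 to 4 counts of the neighbour, and Flur-R plant 2 at 10 HAT (418 and 28) stands between the other 10 HAT libraries and the earlier ones.

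Flur-R plant 2 at 10 HAT was also compared with the other plants of its group over many transcripts. Over the 2078 transcripts called lower at 10 HAT in both susceptible lines, its median log2 distance from the mean of the other 3 Flur-R plants was 0.17, with 65.2% of them above it. The same medians were 0.01, 0.04 and -0.21 for plants 1, 3 and 4. Over the 1458 transcripts called higher in both susceptible lines, the median of plant 2 was -0.05, within the range of the other plants, at -0.10 to 0.18.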

How the data were processed

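The 27 kochia libraries fall into 9 groups by line and time, from the labels. Alignment by the authors used HISAT2 against coding sequences of assembly version 2, with version 2.1.0 in the submitters' notes, followed by counting per transcript, DESeq normalization and tests in DESeq2 1.28.1. The deposited values are scores: DESeq-normalized counts rounded to whole numbers. Reads per transcript cannot be recovered from them, so no tool that needs read counts was run, and the read totals per library in the study's supplement were not used. Every transcript that reached 10 in 2 or more libraries entered limma 3.58.1 (R 4.3.3) as log2 of the value plus 1, and the variance trend was modelled. P-values were adjusted by Benjamini-Hochberg within each comparison, and calls needed an adjusted p below 0.05 with a log2 difference above 0.5 in size. The procedure was tested on simulated data.

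The transcript, gene lists, naming rule and tests were chosen with earlier results of these data known. Named were the 12 closest transcripts, the 10 closest and 4 most opposite described ones, the 5 closest over deviations, all list members and the 3 gene models on either side. Descriptions come from the study's tables. The methods state that the same plants were sampled at each time but not that the number in a label names the plant, so libraries with the same number in a line were taken as 1 plant. Over transcripts, deviations from group means correlated between libraries of a plant at a median of 0.722 (Flur-R), 0.460 (9425) and 0.607 (J01-S), and between plants at -0.275, -0.158 and -0.222, and the lowest value within a plant was 0.588, 0.063 and 0.437. The main fit did not model the plant, so its p-values treat libraries of the same plant as independent. The plant entered only as a block in alternative fits. Which plants were flowering and which RNA batch a library came from are not given in the sources used here, and neither was modelled. The tissue label was not checked against markers, since no marker list was used here.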

Additional observations from a re-analysis of the deposited data

Results flagged for a closer look

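By Dixon's test in groups of 4 libraries, the highest or lowest value stood apart from the other 3 in 13 of 94 groups of named transcripts, where chance flags about 1 in 20 groups of normal values. That rate does not hold for these groups, since some transcripts were named because they follow translocator 2 plant by plant, isoforms share reads and the counts are skewed. Translocator 2 was among them, with Flur-R 10 HAT plant 2 at 418 normalized counts and the next library at 25. The same library was the highest in Bs.00g002540.m01 (28, next 0), in the glyoxalase domain transcript Bs.00g512260.m01 (942, next 24), in Bs.00g530500.m01 (1421, next 1027) and in Bs.00g064170.m01 (760, next 393). In Bs.00g002570.m01 the highest was Flur-R plant 3 (2, next 0).

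The library labelled 9425 10 HAT replicate 3, whose line is in doubt, was the highest in the aquaporin Bs.00g239120.m01 (3570, next 578), in both isoforms of cold regulated protein 27 (Bs.00g168520.m01 with 5514, next 4023, and Bs.00g168520.m02 with 5492, next 3893) and in Bs.00g388220.m01 (529, next 422). It was the lowest in both isoforms of Bs.00g002580, with 194 (next 232) in .m01 and 216 (next 246) in .m02. In Bs.00g512260.m01 the highest of 9425 was plant 4 (70, next 22).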

How the results depend on the processing

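None of the 81 alternatives for the 9 line differences of translocator 2 led to a call, the lowest adjusted p being 0.160, and the direction changed in 2. The difference of 9425 from J01-S at 3 HAT turned to 0.13 with libraries rescaled to equal totals and to 0.13 with the plant as a random replicate block. Leaving out 1 library in turn, this difference ranged from -1.09 to 0.92, that of Flur-R from 9425 at 10 HAT from -0.98 to 0.62 and from J01-S from -1.39 to 0.21, and the difference of the 3 HAT response of 9425 from J01-S from -1.65 to 0.35, with no call. The untreated difference from J01-S ranged from -1.29 to -0.31 for Flur-R and from 0.08 to 1.05 for 9425, depending on the J01-S replicate left out, and that of Flur-R from J01-S at 3 HAT from 0.41 to 2.42, also with no call. Of 36 alternatives for the changes with time, the fixed replicate block, which pairs libraries by plant and leaves J01-S at 10 HAT resting on plant 4, moved the change there to -6.02. The causes of these moves were not tested.

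Counts of list members at 10 HAT were the same under every alternative. At 3 HAT, fits with only the groups compared, which hold fewer samples, called 1, 0 and 0 starch members in Flur-R, 9425 and J01-S and 2, 0 and 0 light harvesting members. These fits called 0 evening members in 9425 and 0 in J01-S, and 2 auxin members in 9425 and 0 in J01-S. Light harvesting members in 9425 numbered 5 with the random block and 5 without the 2 libraries in doubt. In J01-S they numbered 6 with either block and 5 without the libraries in doubt. Leaving out 1 library, they ranged from 3 to 6 in Flur-R, from 2 to 5 in 9425 and from 0 to 5 in J01-S. Beside these and the starch counts given above, the block changed no call of translocator 2 or of the lists.

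The 12 closest transcripts depend on the measure: 11 were shared with 8 added in place of 1, 10 without Flur-R 10 HAT plant 2 (chosen after seeing the data), 9 without the libraries in doubt and 9 with equal totals. Over the 9 group means 4 were shared, by the lowest r within a line 4, and by Spearman's rho 1. For the neighbour Bs.00g002540.m01, the untreated difference from 9425 had an adjusted p of 0.0584 with 0.5 added and 0.0519 with no filter, and its 3 HAT response difference one of 0.0303 with 8 added. With few plants per group and low counts at 10 HAT, line differences of several fold could be missed.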
